A study of Mus musculus with 18 samples.

Results

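The question was how the first transcriptional response of mouse fibroblasts to tumour necrosis factor alpha (TNF) differed when IKK2 was missing. The value described is a difference of responses: the log2 change with TNF in the IKK2 knock-out line minus the log2 change with TNF in the wild-type line. It rests on 8 of the 18 libraries of the study, which sequenced total RNA from immortalised mouse embryonic fibroblast (MEF) lines. The 8 libraries form 4 groups of 2, namely wild type (WT) untreated, WT with 10 ng/ml TNF for 45 min, IKK2 knock-out (IKK2 KO, a line labelled as lacking IKK beta, the product of Ikbkb) untreated, and IKK2 KO with the same dose for 45 min. Untreated cells are the 0 min point of the same time course, and a p65 knock-out line (p65 KO) and a 90 min point make up the other libraries. Each genotype is 1 immortalised line, so genotype and line cannot be told apart. The labels do not say whether the 2 libraries of a group came from separate cultures, so p-values measure only the spread between libraries, which may be technical. Of 55536 genes in the table, 16322 had enough counts to be tested. Levels are CPM (counts scaled to the size of the library, with TMM factors) in libraries a and b of a group, in that order, and the tests are edgeR's quasi-likelihood test with Benjamini-Hochberg adjustment over all genes tested, called at an adjusted p under 0.05. "Lower" means a smaller rise or a larger fall in IKK2 KO, and "higher" means the reverse.

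TNF binds its receptor on the cell surface and assembles a complex of adaptors and ubiquitin ligases that activates the IκB kinase (IKK) complex. In the classical route IKK2 phosphorylates the inhibitor IκBα, whose destruction frees NF-κB dimers containing p65 to enter the nucleus and switch on inflammatory genes, among them the genes of their own inhibitors. The same receptor complex activates the MAP kinases JNK, p38 and ERK, which act on AP-1 and other immediate-early genes. In fibroblasts the early NF-κB programme is known for chemokines, adhesion molecules and survival factors.

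The responses of 794 genes differed between the lines, 4.86% of the genes tested. The difference was lower for 460 genes (2.82%) and higher for 334 genes (2.05%), and it reached 2-fold for 109 genes (0.668%), of which 77 were lower (0.472%) and 32 higher (0.196%). The median difference over all genes tested was −0.01, over the genes called lower −0.43 and over those called higher 0.40. Protein-coding genes made up 90.9% of the genes called lower, 94.6% of those called higher and 75.5% of all genes tested. The 2 responses that enter the difference share its libraries and are given as its parts: 12.2% of the genes tested were called with TNF in WT (5.73% rose and 6.45% fell) and 8.76% in IKK2 KO (3.33% rose and 5.43% fell). Among the 460 genes called lower, 188 rose in WT and were not called in IKK2 KO, 52 rose in both lines, 49 rose in WT and fell in IKK2 KO, and 121 fell in IKK2 KO without a call in WT. A further 27 fell in both lines and 23 were called in neither. Among the 334 genes called higher, 160 fell in WT and were not called in IKK2 KO, 73 rose in IKK2 KO without a call in WT, 33 fell in both, 30 fell in WT and rose in IKK2 KO, 20 rose in both and 18 were called in neither.

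**Figure D1:**
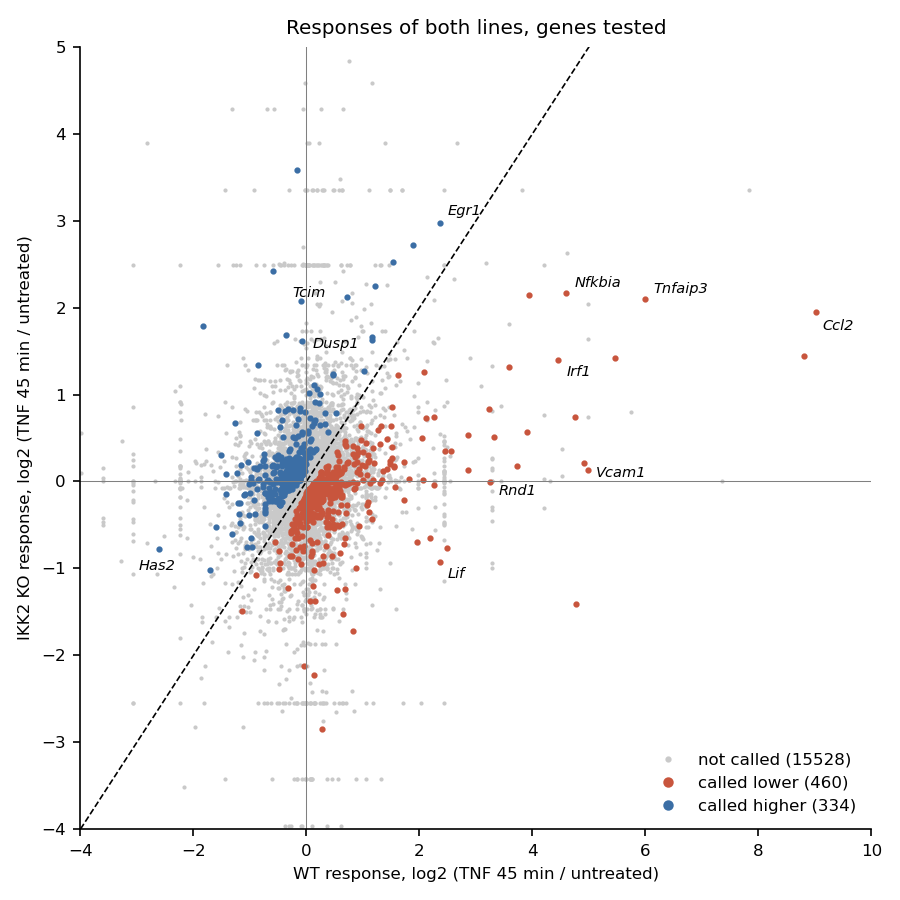
The x axis gives the log2 response to TNF at 45 min in WT and the y axis the same response in IKK2 KO, for genes tested; points on the dashed diagonal responded alike. Red points are the 460 genes called lower and blue points the 334 called higher; 15 genes lie outside the axes, and the straight rows of grey points are genes with very few counts in a group, whose fitted values depend on a prior count.

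Baseline levels enter the difference, and they differed widely. Untreated IKK2 KO and untreated WT were called apart for 12122 genes, 74.3% of those tested, 5860 higher (35.9%) and 6262 lower (38.4%) in IKK2 KO. Of the 460 genes called lower in the difference, 222 stood higher in untreated IKK2 KO and 173 lower, and of the 334 called higher, 102 stood higher and 188 lower. The mean level after TNF was below WT in IKK2 KO for 312 of the 460 genes and above it for 148. For the 334 genes called higher it was above WT for 193 and below it for 141. Untreated and treated levels are parts of the value by which these genes were called, so these splits support nothing beyond the call. Depth was between 16.7 and 23.5 M counts per library, mitochondrial genes took 6.61 to 7.90% of the counts and protein-coding genes 72.1 to 76.9%, and 1 predicted gene, Gm26917, took 9.99 to 11.0% in the WT libraries and 13.7 to 14.9% in the IKK2 KO libraries. In these bulk libraries fewer cells expressing a gene and less RNA per cell cannot be told apart.

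The deleted gene was read first. Ikbkb (ENSMUSG00000031537, GRCm38 chromosome 8, 22659212 to 22706589) stood at 60.4 and 59.3 CPM in untreated WT, 60.4 and 60.2 CPM in treated WT, 43.1 and 43.7 CPM in untreated IKK2 KO and 41.95 and 40.2 CPM in treated IKK2 KO. The IKK2 KO libraries all lay below the WT libraries, and TNF left the gene without a called difference (−0.09 ± 0.07, adjusted p = 0.65). Counts were summed over the whole gene, so they do not check which part of it is missing. Over all genes tested 2.82% were called lower and 2.05% higher, the shares against which the counts of this and the later lists stand. Of the 12 genes for IKK subunits and the kinases above them, 1 was called lower and the other 11 were not called, with a median of −0.05. The 1 was Map3k14 (−0.94 ± 0.10, adjusted p = 2.2e-09), which encodes NIK, the kinase of the alternative NF-κB route. It stood at 20.9 and 23.03 CPM in untreated WT, 21.95 and 24.1 CPM in treated WT, 33.9 and 35.5 CPM in untreated IKK2 KO and 18.1 and 20.3 CPM in treated IKK2 KO. The WT libraries overlapped before and after TNF, whereas both treated IKK2 KO libraries lay below both untreated ones. Map3k8, which encodes the kinase TPL2 upstream of ERK, went from 1.03 and 0.304 CPM to 6.697 and 5.497 CPM in WT and from 0.3095 and 0.342 CPM to 1.02 and 0.355 CPM in IKK2 KO, and its difference was not called (−1.999 ± 0.71, adjusted p = 0.11), although it was with limma-voom on all libraries (adjusted p = 0.0225) and without library untreated WT a (adjusted p = 0.0106) or treated IKK2 KO a (adjusted p = 0.0244). Of the list, limma-voom called 2 members, and 2 and 3 were called lower without those libraries.

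Inhibitors of NF-κB gave some of the largest differences. Of 15 tested genes for IκB proteins and other brakes on the pathway, 8 were called lower, against 2.82% of all genes tested. The other 7 were not called, and the median was −0.39 (−0.36 without the 1 member at 3 counts or fewer in a group). Nfkbia (ENSMUSG00000021025, GRCm38 chromosome 12, 55489410 to 55492647) encodes IκBα, the inhibitor that IKK2 targets and that NF-κB resynthesises. It was measured at 15.1 and 15.6 CPM in untreated WT, 368 and 377 CPM in treated WT, 40.8 and 41.96 CPM in untreated IKK2 KO and 183 and 189 CPM in treated IKK2 KO. No libraries of any 2 groups overlapped, and the treated WT libraries were the highest although the untreated WT libraries were the lowest. The rise was 4.60 ± 0.04 in WT and 2.17 ± 0.04 in IKK2 KO, a difference of −2.44 ± 0.07 (adjusted p = 1.2e-28). Tnfaip3 (ENSMUSG00000019850, GRCm38 chromosome 10, 19000910 to 19015657) encodes A20, the ubiquitin-editing enzyme that shuts off TNF receptor signalling. Its libraries held 8.54 and 8.98 CPM in untreated WT, 563 and 552 CPM in treated WT, 32.9 and 36.5 CPM in untreated IKK2 KO and 151 and 147 CPM in treated IKK2 KO. The 4 groups again lay apart in the same order as for Nfkbia. Its difference was −3.90 ± 0.08 (adjusted p = 3.3e-34), from a rise of 5.99 ± 0.05 in WT and of 2.10 ± 0.04 in IKK2 KO.

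Of the other inhibitors called lower, most were not called with TNF in IKK2 KO. Nfkbie, which encodes IκBε, went from 1.44 and 1.52 CPM to 22.1 and 22.1 CPM in WT and from 1.55 and 1.08 CPM to 1.51 and 2.42 CPM in IKK2 KO (−3.33 ± 0.37, adjusted p = 5.2e-09). The treated WT libraries lay above all others, and those of IKK2 KO overlapped with and without TNF. Bcl3, an atypical IκB that partners p50 and p52 in the nucleus, rose in WT from 0.451 and 0.7101 to 7.45 and 7.78 CPM and stood at 0.186 and 0.114 CPM before and 0.215 and 0.118 CPM after TNF in IKK2 KO. Its difference of −3.55 ± 0.93 (adjusted p = 0.014) lost its call without library untreated IKK2 KO a or b or treated IKK2 KO b (adjusted p from 0.0527 to 0.306). Tnip1, which encodes the A20 partner ABIN1 (−1.24 ± 0.11), and Nfkbib, which encodes IκBβ (−0.85 ± 0.15), rose in WT and were not called in IKK2 KO. Cyld, a deubiquitinase that restrains the pathway, rose in WT (0.14 ± 0.03) and fell in IKK2 KO (−0.20 ± 0.04), a difference of −0.34 ± 0.05. Nfkbiz, which encodes the co-activator IκBζ, rose in both lines, by 1.62 ± 0.06 in WT and 1.23 ± 0.08 in IKK2 KO. Its difference of −0.39 ± 0.11 (adjusted p = 0.016) lost its call without library untreated WT a, treated WT a, untreated IKK2 KO b or treated IKK2 KO a and with DESeq2 (adjusted p from 0.0717 to 0.553). Nfkbid, a further atypical IκB, was at 0 counts in all 4 IKK2 KO libraries and at 1.07 and 1.07 CPM before and 4.54 and 5.596 CPM after TNF in WT. The other brakes, such as the deubiquitinase genes Otud7b (−0.03 ± 0.05) and Otulin (−0.08 ± 0.11) and the A20 partner genes Tax1bp1 (0.04 ± 0.05) and Rnf11 (0.14 ± 0.07), were not called.

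Promoter sequences are printed for a few genes picked from those named, not for the largest differences in order. They show what letters stand at the starts of some genes with a lower response in IKK2 KO. They come from RefSeq, build GRCm38.p6, and run over the 250 bases before the start, 5′ to 3′ on the gene's strand. Capitals mark matches to the NF-κB consensus or to the AP-1 motif TGANTCA, searched on both strands. Dusp1, described further on, is shown as a gene with a higher response and no match.
Nfkbia: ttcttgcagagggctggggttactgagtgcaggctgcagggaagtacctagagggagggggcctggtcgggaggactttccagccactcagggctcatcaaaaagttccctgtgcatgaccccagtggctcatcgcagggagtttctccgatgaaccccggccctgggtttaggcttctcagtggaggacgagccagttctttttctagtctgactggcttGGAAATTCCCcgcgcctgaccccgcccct
Tnfaip3: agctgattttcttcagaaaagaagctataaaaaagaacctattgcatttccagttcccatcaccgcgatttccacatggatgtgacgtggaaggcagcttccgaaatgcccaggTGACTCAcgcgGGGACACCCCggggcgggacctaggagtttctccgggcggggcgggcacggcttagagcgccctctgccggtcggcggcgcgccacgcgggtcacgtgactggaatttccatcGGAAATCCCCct
Irf1: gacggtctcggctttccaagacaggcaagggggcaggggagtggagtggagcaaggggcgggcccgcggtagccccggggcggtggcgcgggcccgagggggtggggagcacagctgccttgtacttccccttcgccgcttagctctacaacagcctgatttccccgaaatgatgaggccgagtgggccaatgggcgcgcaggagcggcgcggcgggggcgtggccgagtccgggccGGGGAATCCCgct
Cxcl10: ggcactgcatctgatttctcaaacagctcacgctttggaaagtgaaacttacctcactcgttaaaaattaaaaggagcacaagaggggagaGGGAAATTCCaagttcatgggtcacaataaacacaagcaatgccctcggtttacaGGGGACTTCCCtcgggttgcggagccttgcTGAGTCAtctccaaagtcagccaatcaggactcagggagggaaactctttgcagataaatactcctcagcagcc
Lif: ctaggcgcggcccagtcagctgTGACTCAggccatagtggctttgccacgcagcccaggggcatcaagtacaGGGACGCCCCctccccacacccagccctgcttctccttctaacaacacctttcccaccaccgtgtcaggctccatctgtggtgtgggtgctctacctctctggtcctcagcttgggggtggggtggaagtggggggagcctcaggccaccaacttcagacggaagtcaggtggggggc
Dusp1: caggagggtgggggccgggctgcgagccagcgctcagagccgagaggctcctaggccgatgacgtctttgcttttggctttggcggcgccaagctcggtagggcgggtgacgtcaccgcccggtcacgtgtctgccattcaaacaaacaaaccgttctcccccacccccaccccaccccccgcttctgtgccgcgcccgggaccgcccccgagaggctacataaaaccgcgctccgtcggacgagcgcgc
The windows lie at chr12:55492648-55492897, minus strand (Nfkbia), chr10:19015411-19015660, minus strand (Tnfaip3), chr11:53769764-53770013, plus strand (Irf1), chr5:92348890-92349139, minus strand (Cxcl10), chr11:4257318-4257567, plus strand (Lif) and chr17:26508473-26508722, minus strand (Dusp1). Starts are those of RefSeq, so the Dusp1 window lies within the span given for its gene and the Tnfaip3 window almost wholly within its own. Nfkbia has 1 NF-κB match, 29 to 20 bases before the start. Tnfaip3 has matches 125 to 116 and 12 to 3 bases before the start and an AP-1 match 136 to 130 bases before it, all in the first of its 2 promoters, and the second has no match. Irf1 has 1 match, 13 to 4 bases before the start, in the first of its 2 promoters, and none in the second. Cxcl10 has an NF-κB match 159 to 150 bases before the start, a pair of overlapping matches between 104 and 94 bases before it and an AP-1 match 74 to 68 bases before it. Lif has an NF-κB match 178 to 169 bases before the start and an AP-1 match 228 to 222 bases before it. None of these NF-κB matches overlaps an AP-1 match. Ccl2, Vcam1 and Has2 were not matched.

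Over windows of 300 bases (250 before to 50 after the start), 10.4% of the 13001 promoters of genes tested and 8.46% of all 32851 promoters held the NF-κB consensus. Of the genes called lower, 345 of 460 were matched by symbol, with 446 promoters, and 16.1% of these held it. Of the genes called higher, 254 of 334 were matched, and 47 of their 384 promoters (12.2%) held it. Of the 77 genes called lower by at least 2-fold 43 were matched, and 24 of their 52 promoters (46.2%) held it. Of the 32 called higher by at least 2-fold 19 were matched, and 4 of their 30 promoters (13.3%) held it. The AP-1 motif was in 10 of the same 52 promoters (19.2%), in 2 of the 30 (6.67%), in 5.25% of the promoters of genes tested and in 7.81% of all promoters. The CArG box, the motif named for serum response factor, was in 0 of the 52, 1 of the 30 and 1.45% of the promoters of genes tested. Of the genes with the 15 largest lower differences 10 were matched, and 8 of their 12 promoters (66.7%) held the NF-κB consensus. Of those with the 15 largest higher differences 8 were matched, and 2 of their 14 promoters (14.3%) held it, those of Lingo1 and Vegfa. These are counts of letters in a window and say nothing about binding.

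All 5 genes for NF-κB subunits were called lower, against 2.82% of all genes tested, with a median of −1.12. Their untreated levels were called higher in IKK2 KO for 4 and lower for 1. Relb, which encodes the main partner of p52, was at 6.36 and 7.25 CPM in untreated WT, 48.3 and 49.4 CPM in treated WT, 16.8 and 15.7 CPM in untreated IKK2 KO and 23.6 and 23.4 CPM in treated IKK2 KO. Its treated WT libraries lay above all others, and in IKK2 KO the rise was 0.53 ± 0.08 against 2.85 ± 0.07 in WT, a difference of −2.32 ± 0.11 (adjusted p = 5.5e-20). Nfkb2, which encodes the precursor of p52, rose in WT (53.7 and 53.5 to 129 and 134 CPM) and stood at 88.4 and 89.1 CPM before and 85.3 and 90.2 CPM after TNF in IKK2 KO (−1.31 ± 0.05, adjusted p = 1.6e-22). Nfkb1, which encodes the precursor of p50, was at 130.1 and 138 CPM and 236 and 237 CPM in WT and 116 and 115 CPM and 114 and 115 CPM in IKK2 KO (−0.82 ± 0.05). In both genes the IKK2 KO libraries overlapped with and without TNF. Rel, which encodes c-Rel, rose in both lines, by 1.51 ± 0.05 in WT and 0.40 ± 0.05 in IKK2 KO (−1.12 ± 0.07, adjusted p = 1.3e-15). Rela, which encodes p65, rose by 0.56 ± 0.04 and 0.30 ± 0.04, and its difference of −0.26 ± 0.06 (adjusted p = 0.004) lost its call without library untreated IKK2 KO b and with DESeq2 (adjusted p of 0.117 and 0.0855).

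Several chemokines had untreated levels far apart in the lines. Of 19 chemokine genes 11 were tested, 5 of them were called lower (against 2.82% of all genes tested) and the other 6 were not called. The median over the 5 members with more than 3 counts in every group was −1.51, and over all 11 fitted values −1.98. Ccl2 (ENSMUSG00000035385, GRCm38 chromosome 11, 82035571 to 82037453) encodes a chemokine that draws monocytes. Its libraries held 0.123 and 0.101 CPM in untreated WT, 63.2 and 61.7 CPM in treated WT, 15.2 and 14.9 CPM in untreated IKK2 KO and 57.7 and 58.97 CPM in treated IKK2 KO. Untreated IKK2 KO stood far above untreated WT, and the treated libraries of both lines ended close together, those of IKK2 KO slightly below. The untreated WT level rests on 5 counts over both libraries. The difference of −7.07 ± 0.24 (adjusted p = 3.9e-26) came from rises of 9.03 ± 0.14 in WT and 1.95 ± 0.06 in IKK2 KO. Cxcl10, which encodes a chemokine for T cells, showed 0.205 and 0.0507 CPM in untreated WT, 5.82 and 6.69 CPM in treated WT, 6.93 and 6.33 CPM in untreated IKK2 KO and 17.1 and 18.4 CPM in treated IKK2 KO. Both treated IKK2 KO libraries lay above both treated WT libraries, and untreated WT rests on 6 counts. Its difference was −4.05 ± 0.39 (adjusted p = 1.4e-10) on the log2 scale, whereas the gain in CPM was larger in IKK2 KO by 4.97 CPM. Ccl7, the neighbour of Ccl2 and also a monocyte chemokine, was at 0 counts in both untreated WT libraries and at 2.74 and 2.72 CPM after TNF, against 3.16 and 3.02 CPM and 8.02 and 8.805 CPM in IKK2 KO. It was called lower (adjusted p = 1.4e-07) with a gain in CPM that was larger in IKK2 KO by 2.59 CPM, so its direction depends on the scale.

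Other chemokines were scarce in 1 of the lines or responded less. Cxcl1, a neutrophil chemokine, had 0 and 0.0507 CPM and 0.815 and 0.594 CPM in WT against 8.73 and 8.495 CPM and 55.1 and 51.1 CPM in IKK2 KO, and was not called (adjusted p = 0.4). Cxcl2, its relative, was at 0 counts in untreated WT and in all 4 IKK2 KO libraries, and at 1.11 and 0.891 CPM in treated WT. Cx3cl1, which encodes the membrane-bound chemokine fractalkine, rose from 78.4 and 75.6 CPM to 102 and 104 CPM in WT and stood at 42.4 and 40.4 CPM and 41.4 and 40.9 CPM in IKK2 KO (−0.43 ± 0.07, adjusted p = 6.8e-06). The treated WT libraries were above all others. Ccl9 rose in WT (5.91 and 5.78 to 29.6 and 26.6 CPM) and was scarce in IKK2 KO (0.433 and 0.855 to 0.969 and 1.24 CPM). Its difference of −1.51 ± 0.43 (adjusted p = 0.026) lost its call without library untreated IKK2 KO b or treated IKK2 KO a (adjusted p of 0.658 and 0.123). Cxcl12, a chemokine made constantly by fibroblasts, was not called (0.05 ± 0.06).

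Of 14 cytokine genes 8 were tested and 2 were called lower (against 2.82% of all genes tested), both with responses of opposite sign in the lines. Lif (ENSMUSG00000034394, GRCm38 chromosome 11, 4257557 to 4272514) encodes a cytokine of the interleukin-6 family. It was at 8.33 and 8.77 CPM in untreated WT, 44.4 and 43.3 CPM in treated WT, 10.6 and 12.4 CPM in untreated IKK2 KO and 5.12 and 7.15 CPM in treated IKK2 KO. It rose in WT (2.36 ± 0.08) and fell in IKK2 KO (−0.92 ± 0.12), and the treated IKK2 KO libraries were the lowest of the 8. The difference was −3.28 ± 0.15 (adjusted p = 3.5e-21). Csf1, which encodes the growth factor of macrophages, was at 369.8 and 371 CPM in untreated WT, 701 and 718 CPM in treated WT, 599 and 589.8 CPM in untreated IKK2 KO and 410.2 and 423 CPM in treated IKK2 KO. TNF raised it in WT and lowered it in IKK2 KO, so that the order of the lines in untreated cells was turned round after TNF (−1.45 ± 0.04, adjusted p = 1e-30). The genes Tnf, Il6, Il1a, Il1b, Csf2 and Csf3 had too few counts to be tested. Median differences were −0.35 over the 8 and −0.09 over the 5 with more than 3 counts in every group.

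Adhesion molecules and innate effectors had 3 called lower (against 2.82% of all genes tested) and 8 not called among 11 tested. Their median was −1.30 over the 6 members with more than 3 counts in every group and −2.82 over all 11, and limma-voom called 5 lower. Vcam1 (ENSMUSG00000027962, GRCm38 chromosome 3, 116109949 to 116129688) encodes the adhesion molecule that leukocytes hold on to through integrins. It was measured at 2.63 and 2.74 CPM in untreated WT, 85.7 and 83.7 CPM in treated WT, 125 and 126 CPM in untreated IKK2 KO and 141 and 133 CPM in treated IKK2 KO. The untreated IKK2 KO libraries already lay above the treated WT libraries. TNF then added 0.13 ± 0.04 in IKK2 KO against 4.98 ± 0.08 in WT, a difference of −4.85 ± 0.09 (adjusted p = 1.4e-35). Sele, which encodes E-selectin, was scarce and likewise higher in IKK2 KO, from 3.03 and 2.79 to 4.04 and 4.25 CPM against 0.205 and 0.152 to 1.81 and 1.93 CPM in WT (−2.82 ± 0.48, adjusted p = 4.3e-05). Tlr2, a receptor for bacterial lipopeptides, started closer in the lines, with 4.19 and 3.601 CPM in WT and 7.99 and 7.58 CPM in IKK2 KO. It reached 38.2 and 36.1 CPM in WT and 15.2 and 12.3 CPM in IKK2 KO (−2.40 ± 0.17, adjusted p = 5.6e-15), the treated WT libraries being the highest. Icam1, another adhesion molecule, was at 0 counts in both untreated groups, at 1.51 and 1.29 CPM in treated WT and at 0 and 0.118 CPM in treated IKK2 KO. Ptgs2, which encodes cyclooxygenase-2, was at 1552 and 1547 CPM in untreated WT and 321 and 324 CPM in untreated IKK2 KO, and was not called (0.08 ± 0.04, adjusted p = 0.25).

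Survival genes and adaptors of the receptor complex moved in part. Among 9 survival genes 3 were called lower (against 2.82% of all genes tested) and 6 were not called (median −0.17). Birc3, which encodes the ubiquitin ligase cIAP2, went from 2.05 and 2.28 CPM to 13.7 and 11.8 CPM in WT and from 4.83 and 6.27 CPM to 6.68 and 7.56 CPM in IKK2 KO (−2.20 ± 0.21, adjusted p = 4.7e-11). Birc2, its neighbour encoding cIAP1, differed by −0.78 ± 0.13, and Cflar, which encodes the caspase-8 inhibitor cFLIP, by −0.31 ± 0.05. All 3 rose in WT and none was called in IKK2 KO. Of 12 genes for TNF receptors and adaptors 3 were called lower and 9 were not called (median 0.05). Traf1, an adaptor that binds cIAP proteins, rose in both lines, from 0.657 and 0.659 CPM to 9.32 and 11.04 CPM in WT and from 2.48 and 2.68 CPM to 12.1 and 10.7 CPM in IKK2 KO. Treated levels of the lines overlapped, and the untreated level was higher in IKK2 KO. The difference of responses was −1.80 ± 0.29 (adjusted p = 2.1e-05). Traf3, which keeps NIK low, rose in WT (0.24 ± 0.05) and fell in IKK2 KO (−0.21 ± 0.04), a difference of −0.46 ± 0.06. Traf2, which joins cIAP proteins to the receptor, differed by −0.50 ± 0.12 (adjusted p = 0.0077), a call lost without library untreated WT b, treated WT b, untreated IKK2 KO a or treated IKK2 KO a and with DESeq2 (adjusted p from 0.0577 to 0.0804). Tnfrsf1a, the receptor gene itself, was not called (0.06 ± 0.08).

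**Figure D2:**
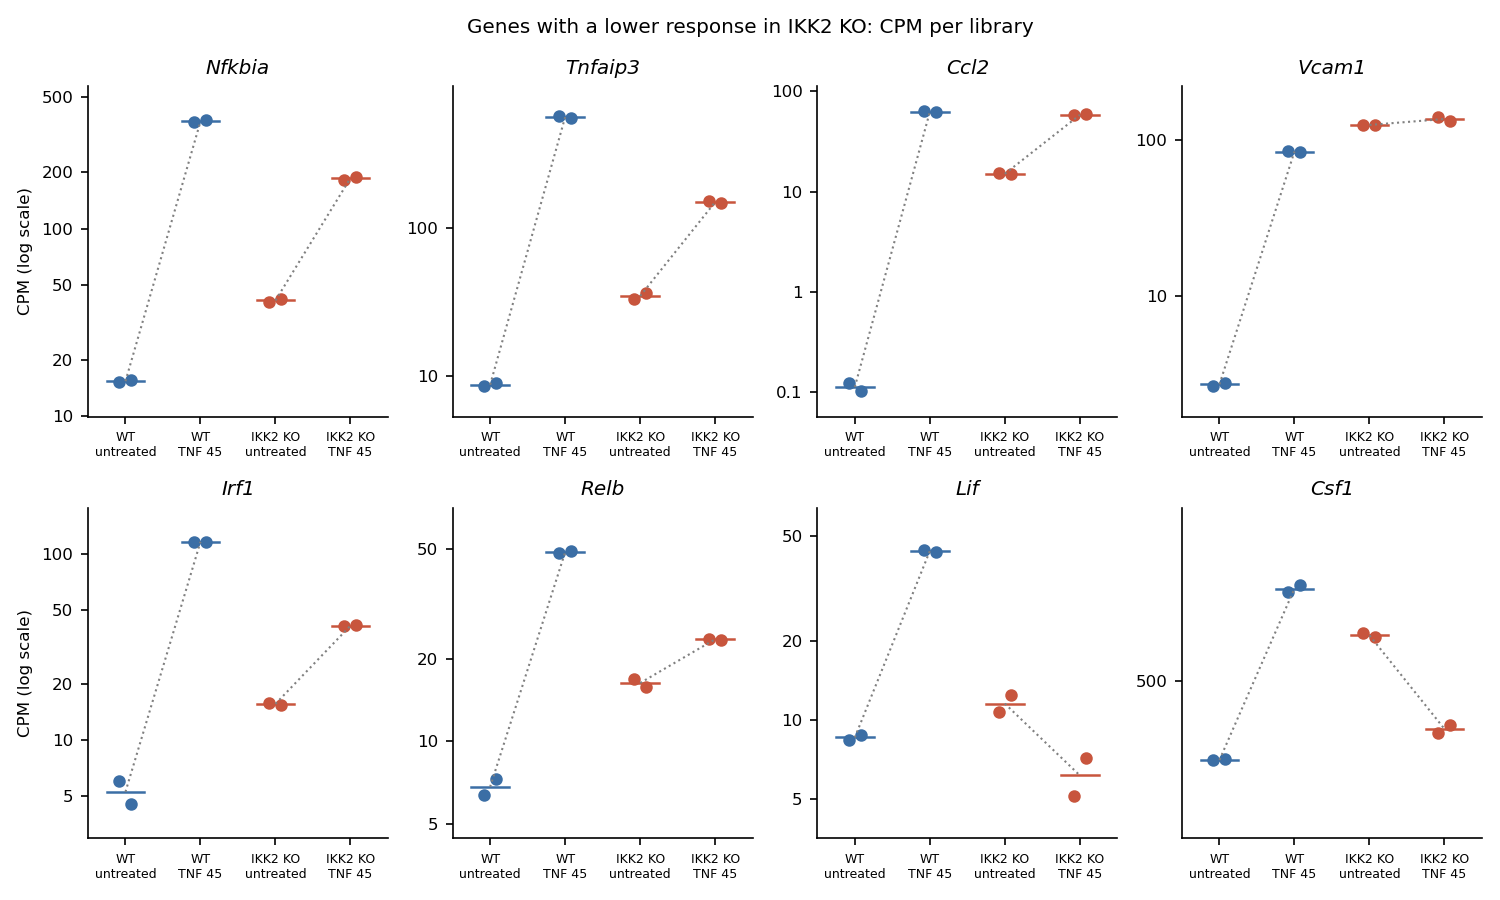
Each panel plots the CPM of 1 gene on a log axis in the 8 libraries, with 2 points and a short line at the mean for each group, WT in blue and IKK2 KO in red, and a dotted line from untreated to treated. The slope is steeper in WT in all 8 panels; Ccl2 and Vcam1 start far higher in IKK2 KO, and Lif and Csf1 fall in IKK2 KO.

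Among interferon-related genes, Irf1 had the larger of 2 called differences. Of 21 tested, 2 were called lower (against 2.82% of all genes tested) and 19 were not called (median −0.32). Irf1 (ENSMUSG00000018899, GRCm38 chromosome 11, 53770014 to 53778374), a transcription factor for interferon and antigen presentation genes, was at 5.99 and 4.51 CPM in untreated WT, 117 and 117 CPM in treated WT, 15.8 and 15.5 CPM in untreated IKK2 KO and 41.2 and 41.4 CPM in treated IKK2 KO. The groups lay apart, with the treated WT libraries highest and the untreated WT libraries lowest. The difference was −3.05 ± 0.11 (adjusted p = 2.2e-24), and the rise in IKK2 KO was itself called (1.40 ± 0.07). Ifit2, an antiviral gene, differed by −0.32 ± 0.08 (adjusted p = 0.005), a call lost without library treated WT b and with DESeq2 (adjusted p of 0.0614 and 0.119). Among 6 mRNA decay factors 2 were called lower. Zc3h12a encodes Regnase-1, a nuclease that destroys inflammatory mRNAs. It rose from 5.99 and 6.29 CPM to 17.99 and 18.3 CPM in WT and stood at 10.6 and 9.41 CPM and 9.15 and 10.1 CPM in IKK2 KO (−1.62 ± 0.16, adjusted p = 1.1e-10). Zfp36l1, a decay factor that binds AU-rich elements, rose in both lines and less in IKK2 KO (−0.60 ± 0.07). Its relative Zfp36, which encodes tristetraprolin, rose by 2.61 ± 0.06 in WT and 2.33 ± 0.09 in IKK2 KO, and the difference of −0.28 ± 0.12 was not called (adjusted p = 0.24), although it was without library untreated WT a (adjusted p = 0.0461).

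Genes outside the inflammatory lists were also among the 15 largest lower differences. Rnd1, a small GTPase gene that loosens the actin skeleton, stood at 5.58 and 5.93 CPM in untreated WT, 56.2 and 53.8 CPM in treated WT, 23.9 and 25.6 CPM in untreated IKK2 KO and 23.4 and 26.1 CPM in treated IKK2 KO. It rose in WT alone, while the 4 IKK2 KO libraries lay between the 2 WT groups and overlapped (−3.26 ± 0.12, adjusted p = 5.4e-25). Pdgfb, which encodes a growth factor chain for fibroblasts, rose in WT from 0.287 and 0.406 to 1.98 and 1.88 CPM and fell in IKK2 KO from 7.74 and 7.298 to 3.93 and 4.96 CPM (−3.24 ± 0.37, adjusted p = 1e-08). The treated IKK2 KO libraries remained above the treated WT libraries. Papolb, a poly(A) polymerase gene, rose in WT from 1.601 and 2.28 to 10.7 and 6.98 CPM against 0.371 and 0.513 and 0.162 and 0.414 CPM in IKK2 KO. Its difference of −2.84 ± 0.71 (adjusted p = 0.0091) lost its call without library untreated IKK2 KO b or treated IKK2 KO a (adjusted p of 0.197 and 0.0864).

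Immediate-early genes went the other way. Of 28 tested, 15 were called higher and 2 lower, with a median of 0.27, against 2.05% and 2.82% of all genes tested. Both lines raised many of them, 19 in WT and 21 in IKK2 KO. Their untreated levels were called higher in IKK2 KO for 6 and lower for 19. DESeq2 called 12 of the 28 higher and 2 lower. Klf6, a zinc finger factor gene, was at 199 and 198 CPM in untreated WT, 275 and 272 CPM in treated WT, 185 and 187 CPM in untreated IKK2 KO and 438 and 429 CPM in treated IKK2 KO. The untreated lines differed by −0.09, and the treated IKK2 KO libraries were the highest (0.76 ± 0.04, adjusted p = 7.5e-19). Myc, which encodes a growth-promoting transcription factor, stood at 101 and 105 CPM in untreated WT, 116 and 117 CPM in treated WT, 467 and 461 CPM in untreated IKK2 KO and 937 and 997 CPM in treated IKK2 KO. It rose by 0.18 ± 0.04 in WT and 1.06 ± 0.03 in IKK2 KO, a difference of 0.88 ± 0.05 (adjusted p = 4e-19). The untreated level was already higher in IKK2 KO. Nr4a1, an orphan nuclear receptor gene, was at 86.4 and 86.3 CPM in untreated WT, 91.1 and 87.5 CPM in treated WT, 66.6 and 67.8 CPM in untreated IKK2 KO and 133 and 139.6 CPM in treated IKK2 KO. The WT libraries were not called apart by TNF, and the treated IKK2 KO libraries lay above all others (0.97 ± 0.06, adjusted p = 9.3e-18). Klf2 (difference 1.16 ± 0.18) and Fosb (difference 0.54 ± 0.09) likewise rose in IKK2 KO without a call in WT. Klf4 fell in WT (−0.20 ± 0.04) and rose in IKK2 KO (0.50 ± 0.08, difference 0.70 ± 0.09).

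For several growth-factor response genes, the log2 response was higher in IKK2 KO but the level was not. Egr1, which encodes a zinc finger factor induced through ERK, stood at 136 and 131 CPM in untreated WT, 677 and 689 CPM in treated WT, 41.4 and 41.8 CPM in untreated IKK2 KO and 321 and 333 CPM in treated IKK2 KO. Both IKK2 KO groups lay below the WT group of the same treatment. The difference was 0.62 ± 0.05 (adjusted p = 5.4e-13) on the log2 scale and −265 CPM in gained level, so its sign depends on the scale. The same held for Egr2 (0.98 ± 0.12, −48.6 CPM), the antiproliferative gene Btg2 (0.83 ± 0.13, −91.5 CPM), the AP-1 subunit gene Fos (1.03 ± 0.20, −1.32 CPM) and Ier2 (0.26 ± 0.07, −11.5 CPM). The call of Ier2 was lost without library untreated WT a, treated WT a or untreated IKK2 KO a or b and with DESeq2 (adjusted p from 0.0506 to 0.125). Jun, the core AP-1 subunit gene, was at 149.6 and 150.03 CPM in untreated WT, 336 and 332 CPM in treated WT, 105 and 101 CPM in untreated IKK2 KO and 306 and 332 CPM in treated IKK2 KO. Of the treated IKK2 KO libraries, 1 lay in the WT range and 1 below it, and the rise was larger in IKK2 KO (0.48 ± 0.05, adjusted p = 9.2e-10). Junb rose in both lines and was not called (−0.04 ± 0.06, adjusted p = 0.88). Btg1 (0.25 ± 0.05) was called higher, as were Ier5 (0.27 ± 0.07) and Nr4a2 (0.62 ± 0.17). Ier5 lost its call without library untreated WT a, treated WT b, untreated IKK2 KO b or treated IKK2 KO b, with DESeq2 and in a fit of the 8 libraries alone (adjusted p from 0.0521 to 0.27). The call of Nr4a2 was lost without library untreated WT b, treated WT b, untreated IKK2 KO b or treated IKK2 KO b and with DESeq2 (adjusted p from 0.0786 to 0.197). The 2 members called lower were Fosl1, an AP-1 subunit gene (−0.40 ± 0.05, adjusted p = 1.5e-07), and Klf10, a factor gene induced by TGF-β (−0.46 ± 0.05, adjusted p = 9.2e-10), which rose in WT and fell in IKK2 KO. Atf3 (−0.64 ± 0.36), Egr3 (−0.00 ± 0.07), Egr4 (−1.09 ± 0.86), Fosl2 (0.08 ± 0.04), Maff (−0.15 ± 0.09), Nr4a3 (0.03 ± 0.40), Csrnp1 (0.04 ± 0.10), Ier5l (0.06 ± 0.08) and Srf (−0.05 ± 0.06) were not called, nor was Jund (0.35 ± 0.13), which was called higher without the filter on low counts (adjusted p = 0.000229) and without library treated IKK2 KO a (adjusted p = 7.31e-07).

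**Figure D3:**
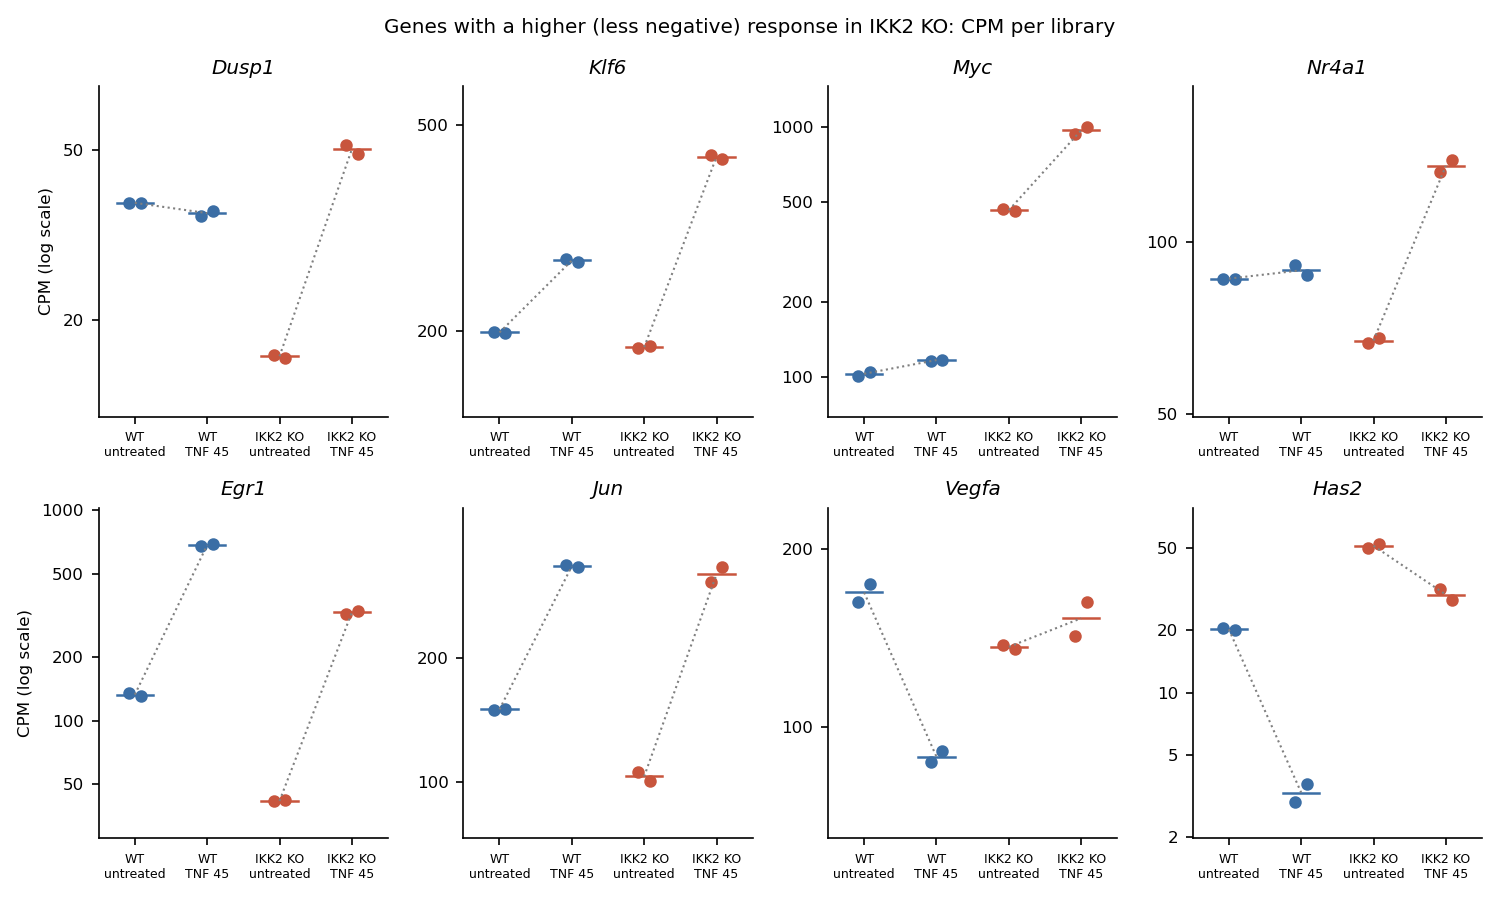
Each panel plots the CPM of 1 gene on a log axis in the 8 libraries, with 2 points and a short line at the mean for each group, WT in blue and IKK2 KO in red, and a dotted line from untreated to treated. In the first 6 panels the rise is steeper in IKK2 KO; Vegfa and Has2 fall in WT and change less in IKK2 KO.

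MAP kinase phosphatases and ERK inhibitors followed, with 6 of 16 called higher and 1 lower (median 0.22), against 2.05% and 2.82% of all genes tested. Their untreated levels were called higher in IKK2 KO for 7 and lower for 9. DESeq2 called 4 of the 16 higher and 1 lower. Dusp1 (ENSMUSG00000024190, GRCm38 chromosome 17, 26505590 to 26562128) encodes the phosphatase that switches off p38 and JNK. It stood at 37.8 and 37.6 CPM in untreated WT, 35.2 and 36.2 CPM in treated WT, 16.6 and 16.4 CPM in untreated IKK2 KO and 51.4 and 49.2 CPM in treated IKK2 KO. WT was not called with TNF (−0.08 ± 0.05), and in IKK2 KO the gene went from the lowest to the highest of the 4 groups (1.61 ± 0.06), a difference of 1.69 ± 0.08 (adjusted p = 7.7e-20). Dusp2, a phosphatase gene for ERK and p38, fell in WT from 18.4 and 18.4 to 6.697 and 6.98 CPM and was not called in IKK2 KO (23.4 and 23.1 and 19.4 and 22.9 CPM), which gave 1.28 ± 0.13 (adjusted p = 3.1e-10). Dusp5, a nuclear ERK phosphatase gene, also fell in WT alone (difference 0.70 ± 0.05). Spred2, which restrains the RAS to ERK route, fell in WT and rose in IKK2 KO (difference 0.63 ± 0.05). Dusp7 rose in WT (0.28 ± 0.05) and fell in IKK2 KO (−0.38 ± 0.05), and was the 1 member called lower (−0.65 ± 0.07). The 11 kinase genes of the JNK and p38 routes had 0 calls in the difference with edgeR (median −0.02). At an unadjusted p under 0.05 there was 1, and DESeq2 and limma-voom called 0. Map2k3 (−0.12 ± 0.06), a kinase gene that activates p38, and Mapkapk2 (0.07 ± 0.05), a target kinase of p38, are examples.

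Among the 15 largest higher differences, many came from genes that fell in WT. Has2 (ENSMUSG00000022367, GRCm38 chromosome 15, 56665627 to 56694539), which encodes an enzyme of hyaluronan synthesis, was at 20.4 and 19.98 CPM in untreated WT, 2.97 and 3.62 CPM in treated WT, 50.1 and 52.1 CPM in untreated IKK2 KO and 31.5 and 27.9 CPM in treated IKK2 KO. It fell in both lines, with responses of −2.60 ± 0.11 in WT and −0.78 ± 0.06 in IKK2 KO, and the difference was 1.82 ± 0.13 (adjusted p = 3.9e-14). Untreated IKK2 KO held more of it, and the loss in CPM was larger in IKK2 KO (a difference of −4.5 CPM). Vegfa, the vascular growth factor gene, stood at 163 and 175 CPM in untreated WT, 87.1 and 90.8 CPM in treated WT, 138 and 135 CPM in untreated IKK2 KO and 142 and 163 CPM in treated IKK2 KO. The treated WT libraries were below all others, and IKK2 KO rose slightly (0.16 ± 0.04, difference 1.08 ± 0.06, adjusted p = 9.7e-18). Sox9, a factor gene of cartilage and many progenitor cells, fell in WT (14.5 and 14.9 to 5.71 and 8.37 CPM) and rose in IKK2 KO (52.2 and 49.6 to 56.7 and 61.99 CPM), which gave 1.26 ± 0.13 (adjusted p = 2.6e-10). Dlx3, a homeobox gene and BMP target, did the same (difference 1.81 ± 0.21), as did Mex3b, which encodes an RNA-binding protein (difference 1.44 ± 0.17). Lef1, which encodes a nuclear partner of β-catenin, fell in WT (10.5 and 12.6 to 4.60 and 3.96 CPM) and was not called in IKK2 KO (19.9 and 18.5 to 20.8 and 20.03 CPM, difference 1.52 ± 0.15). Tcim rose in both lines, from 14.98 and 14.5 to 25.1 and 23.4 CPM in WT and from 9.905 and 10.1 to 44.5 and 42.6 CPM in IKK2 KO, with the treated IKK2 KO libraries highest (1.41 ± 0.11, adjusted p = 4.9e-13). Gprc5c (1.94 ± 0.42) stood under 3 CPM in every library. Foxq1 (1.32 ± 0.32), Lingo1 (1.33 ± 0.40), Spsb2 (1.19 ± 0.36) and Mn1 (1.13 ± 0.33) stood under 3 CPM in IKK2 KO. Their calls were the least secure of the 15: that of Foxq1 was lost without library untreated IKK2 KO b or treated IKK2 KO a (adjusted p of 0.0536 and 0.198). Lingo1 lost its call without library untreated WT b, treated WT a or b, untreated IKK2 KO a or b or treated IKK2 KO b, with limma-voom, without the filter on low counts and in a fit of the 8 libraries alone (adjusted p from 0.0731 to 0.463), Spsb2 without library untreated WT a, treated WT a, untreated IKK2 KO a or b or treated IKK2 KO a, with DESeq2 and with limma-voom (adjusted p from 0.0693 to 0.332) and Mn1 without library untreated WT b, treated WT a, untreated IKK2 KO b or treated IKK2 KO a or b, with DESeq2 and in a fit of the 8 libraries alone (adjusted p from 0.0525 to 0.372).

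Other lists held calls in both directions. Against 2.05% and 2.82% of all genes tested, 3 of 12 YAP and growth factor target genes were called higher and 6 lower (median −0.21, range −3.24 to 1.08). Besides Vegfa and Pdgfb they included Ccn1, a matrix-associated signalling protein gene (0.34 ± 0.03), and Lats2, a Hippo kinase gene (−0.65 ± 0.08). Ereg, an EGF receptor ligand gene, was also called, and it rose in WT and fell in IKK2 KO (difference −0.65 ± 0.06, adjusted p = 8.5e-12). The BMP list, whose genes fell in both lines for the most part (13 of 15 in WT and 10 in IKK2 KO), had 2 called higher and 3 lower. Id2, an inhibitor of bHLH factors, fell from 79.7 and 79.6 to 36.3 and 35.96 CPM in WT and from 110.4 and 112 to 36.6 and 42.6 CPM in IKK2 KO (−0.35 ± 0.07, adjusted p = 0.00094), a call lost without library treated IKK2 KO a (adjusted p = 0.0693). The number of members called lower was 0 without library treated IKK2 KO a, 1 without treated WT a or untreated IKK2 KO a, 5 without treated IKK2 KO b and 1 with DESeq2. Dlx1 (0.70 ± 0.16) was called higher, and its call was lost without library untreated IKK2 KO b or treated IKK2 KO b (adjusted p of 0.0809 and 0.0835), which left 1 member called higher. Grem1 (−0.22 ± 0.06), which encodes a BMP antagonist, was called lower, a call lost without library treated WT a, untreated IKK2 KO a or treated IKK2 KO a and with DESeq2 (adjusted p from 0.0547 to 0.125). The difference of Id1 (−0.19 ± 0.06) lost its call without library untreated WT a or b, treated WT a or b, untreated IKK2 KO a or treated IKK2 KO a, with DESeq2, with RLE size factors, with limma-voom and in a fit of the 8 libraries alone (adjusted p from 0.0612 to 0.395). Snai1, a repressor of epithelial genes, fell less in IKK2 KO (difference 0.69 ± 0.09, adjusted p = 1.5e-07). Zeb2 (−0.22 ± 0.06), also on the list of 6 EMT factors, was called lower, a call lost without library untreated WT b, treated WT a, untreated IKK2 KO a or treated IKK2 KO a, with DESeq2 and in a fit of the 8 libraries alone (adjusted p from 0.0537 to 0.251). Without library treated WT b, 2 members of that list were called lower.

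Genes called on the stress and metabolic lists differed by less than 2-fold. Of 17 p53 target genes 3 were called lower, against 2.82% of all genes tested, and 14 were not called. Untreated levels of the 17 were called higher in IKK2 KO for 2 and lower for 15. The largest difference among those called was that of the polo-like kinase gene Plk2 (−0.67 ± 0.04, adjusted p = 5.8e-17), which rose in both lines. The death receptor gene Tnfrsf10b (−0.30 ± 0.07) and the p53 ligase gene Mdm2 (−0.25 ± 0.05) were the others. Of 20 cholesterol synthesis genes 6 were called lower and 14 were not called (median −0.16). Values were small, such as those of Lss (−0.33 ± 0.06), Sc5d (−0.21 ± 0.06) and Hmgcs1 (−0.20 ± 0.04). Untreated levels of the 20 were called higher in IKK2 KO for 19 and lower for 0. The count called lower was 3 with DESeq2, and it fell or rose when 1 library was left out. Hmgcs1 lost its call without library treated WT a (adjusted p = 0.0849). The call of Sc5d was lost without library untreated WT b, treated WT a, untreated IKK2 KO a or b or treated IKK2 KO a or b, with DESeq2 and in a fit of the 8 libraries alone (adjusted p from 0.0525 to 0.232). Socs1, a feedback inhibitor of cytokine receptors (−0.63 ± 0.13, adjusted p = 0.0015), and Socs5 (−0.32 ± 0.06) were called lower among 8 SOCS genes. Among 7 nuclear long non-coding RNAs Dnm3os fell in WT and rose in IKK2 KO (difference 0.71 ± 0.06). Neat1 rose in IKK2 KO alone (difference 0.29 ± 0.05), and both were called higher. Of 14 fibroblast and matrix genes 2 were called higher (Has2 and the receptor gene Pdgfrb, 0.38 ± 0.07), and the median was 0.01. Col1a1 (0.01 ± 0.04), Vim (0.00 ± 0.03) and Fn1 (0.01 ± 0.03) were among those not called.

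**Figure D4:**
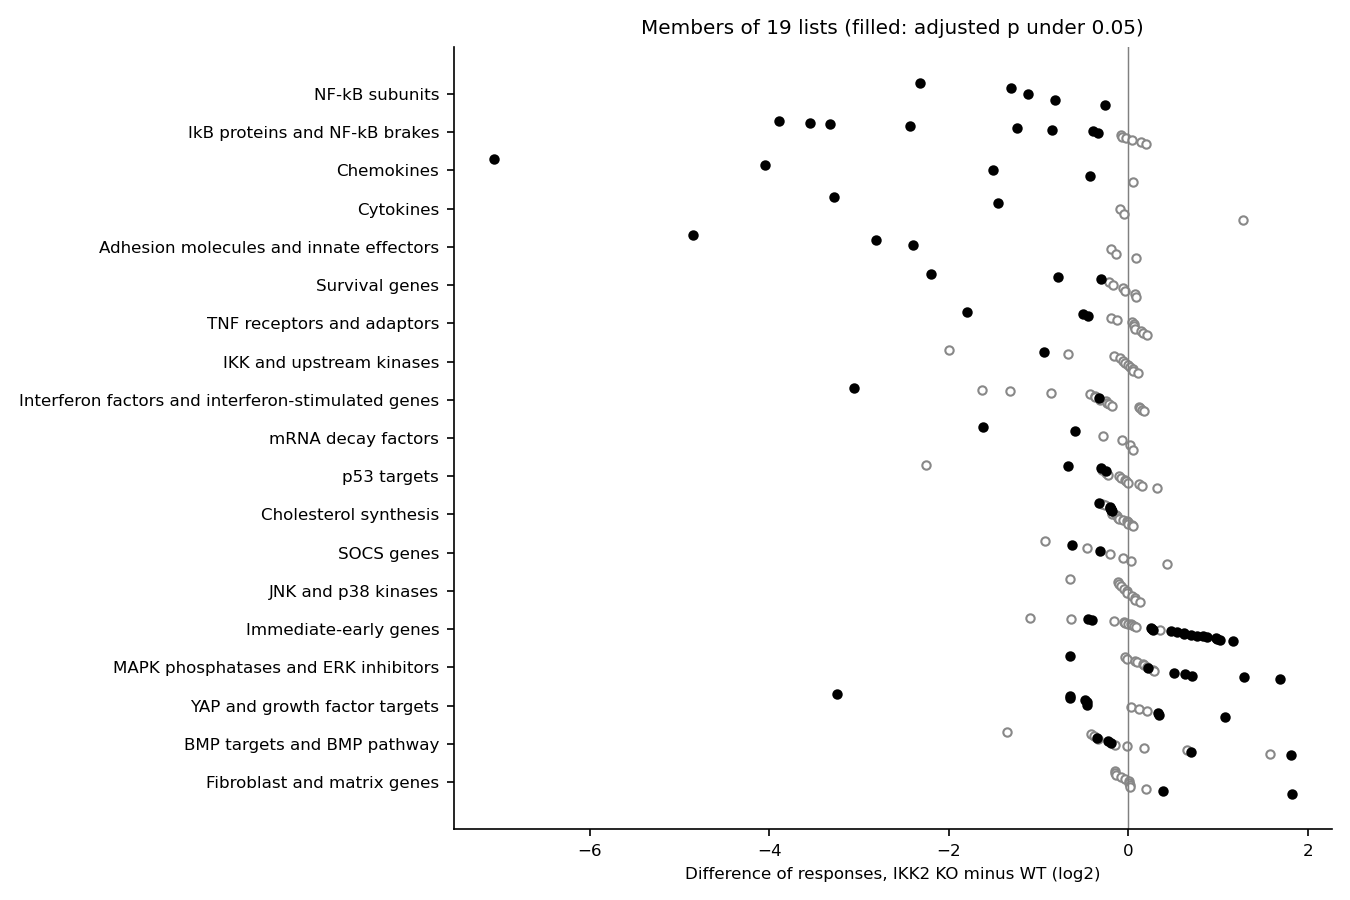
Each point is 1 gene of 1 of 19 lists (rows), placed on the x axis by its difference of responses, IKK2 KO minus WT, in log2; filled points were called. Members with 3 counts or fewer in a group are left out. Filled points lie to the left for NF-κB subunits, IκB proteins and chemokines and mostly to the right for immediate-early genes and MAPK phosphatases.

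A direct test against the p65 KO line asked where the response of IKK2 KO differed from that of a line without p65, whose groups had the same dose and time. Responses at 45 min differed between IKK2 KO and p65 KO for 965 genes (5.91%), 366 higher in IKK2 KO (2.24%) and 599 lower (3.67%). This test shares the IKK2 KO libraries with the comparison with WT, so the values are set side by side. In p65 KO mitochondrial genes took 11.6 and 11.3% of the counts in untreated libraries and 9.63 and 9.65% in treated ones. Protein-coding genes took 83.0 and 82.9% and then 85.1 and 85.0%. Untreated levels in p65 KO also enter these values and are not given here, and their part was not tested. Tnfaip3 rose by 5.99 in WT, 2.10 in IKK2 KO and 0.65 in p65 KO, and the last 2 differed by 1.45 ± 0.09 (adjusted p = 4.6e-16). Nfkbia (1.45 ± 0.07), Ccl2 (1.36 ± 0.21), Irf1 (1.52 ± 0.11) and Traf1 (1.87 ± 0.20) also responded more in IKK2 KO than in p65 KO. Vcam1 was not called between the knock-outs (−0.04 ± 0.08, adjusted p = 0.9), nor were Nfkb2 (−0.08 ± 0.05), Nfkb1 (−0.05 ± 0.05), Tnip1 (0.14 ± 0.11) and Birc3 (0.18 ± 0.64). The largest gap among the immediate-early genes named was that of Egr1, at 2.36 in WT, 2.97 in IKK2 KO and 0.35 in p65 KO (2.62 ± 0.06, adjusted p = 4.9e-31). Zfp36 (1.91 ± 0.14) and Klf6 (0.96 ± 0.05) were likewise higher in IKK2 KO. Lif rose in p65 KO by 0.99 ± 0.11 and was lower in IKK2 KO (−1.92 ± 0.16, adjusted p = 6.3e-12). The BMP target genes Id1 (−1.07 ± 0.06), Id2 (−1.47 ± 0.07) and Smad7 (−0.96 ± 0.06) responded lower in IKK2 KO than in p65 KO. In p65 KO Id1 and Id2 were not called with TNF (adjusted p = 1 and adjusted p = 0.92), and 1.66% of all genes tested were called. A fall was not particular to IKK2 KO: of the 15 tested genes of the BMP list, 13 fell in WT and 10 in IKK2 KO.

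**Figure D5:**
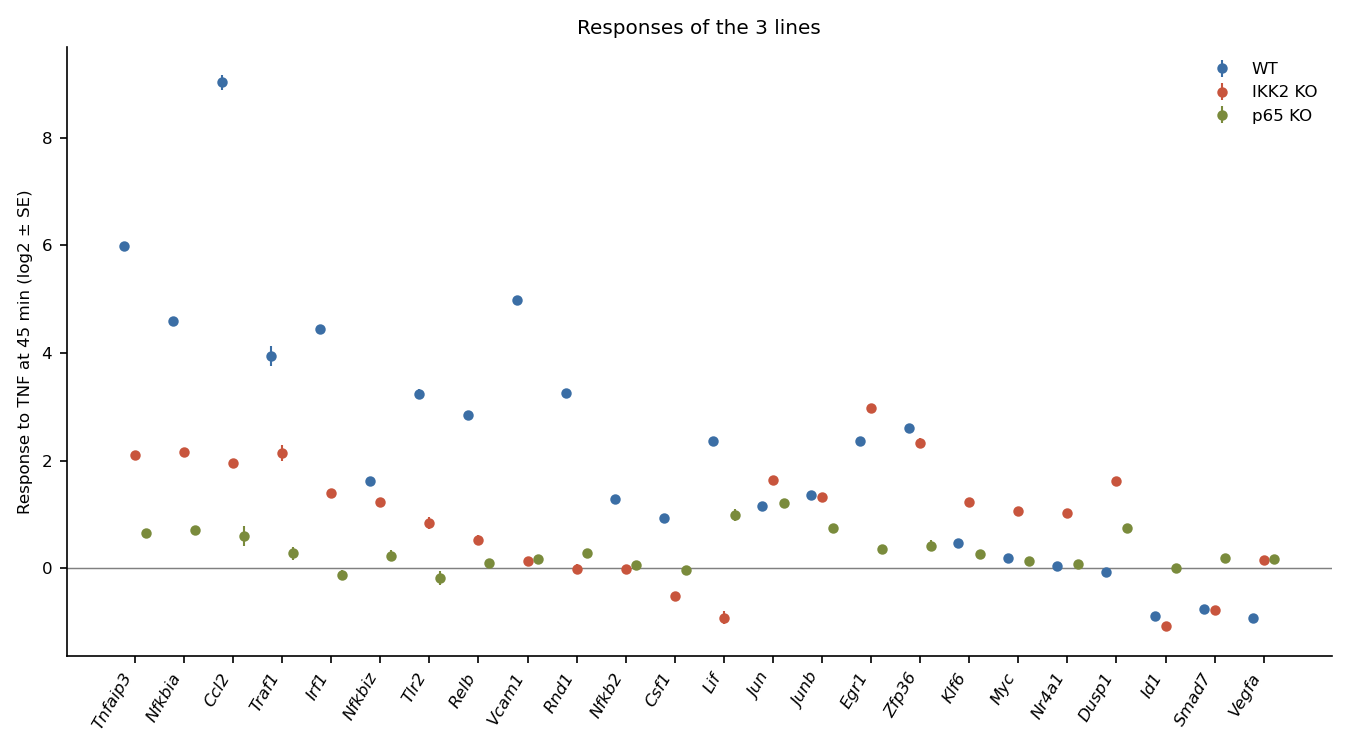
The y axis gives the log2 response to TNF at 45 min with its standard error for 24 genes (x axis) in WT (blue), IKK2 KO (red) and p65 KO (green). For the first 8 genes, Tnfaip3 to Relb, the IKK2 KO points lie between WT and p65 KO; for Egr1, Klf6, Myc, Nr4a1 and Dusp1 the IKK2 KO points are the highest.

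Later values were tested against the early ones. From 45 to 90 min the difference between IKK2 KO and WT changed for 1105 genes (6.77%), 655 upward (4.01%) and 450 downward (2.76%). This test uses the treated libraries of both times, so it shares those of 45 min with the values above. Tnfaip3 went from a difference of −3.90 at 45 min to −1.92 at 90 min (change 1.97 ± 0.06, adjusted p = 7e-28), and Irf1 from −3.05 to −1.13 (change 1.93 ± 0.09). Nfkbia moved less, from −2.44 to −2.03 (change 0.41 ± 0.05). Vcam1 was at −4.85 and −4.67, and its change (0.18 ± 0.05) lost its call in 8 of the 14 other fits (adjusted p up to 0.24). Cxcl10 was not called for a change (0.25 ± 0.16, adjusted p = 0.46). Among the genes higher at 45 min, Has2 went from 1.82 to −0.75 (change −2.57 ± 0.12, adjusted p = 4.9e-20), Vegfa from 1.08 to −0.39, Dusp1 from 1.69 to 0.69 and Nr4a1 from 0.97 to 0.17. Map3k14, lower at 45 min, moved from −0.94 to 0.36 (adjusted p = 4.5e-13).

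Markers were read to check the labelled cell type. The fibroblast genes Col1a1 and Vim were abundant in both untreated groups, at 1162 and 2929.5 CPM in WT and at 1513 and 4346 CPM in IKK2 KO. Of 15 fibroblast and matrix genes 14 were tested (all but Postn), and 2 of these had 3 counts or fewer in a group. Thy1, a surface marker of many fibroblasts, was at 0 counts in the 4 WT libraries and at 26.9 and 27.1 CPM in untreated IKK2 KO. Of the markers of other cell types, 1 of 6 epithelial, 1 of 5 endothelial, 2 of 6 myeloid, 1 of 5 muscle and 0 of 5 adipocyte genes passed the filter on low counts, and Ptprc, Epcam, Pecam1, Myod1 and Adipoq did not. Neural markers went the other way: 4 of 6 passed that filter (Tubb3, Sox2, Map2 and Stmn2), and all 4 were called lower in untreated IKK2 KO. Their mean levels summed to 166.4 CPM in untreated WT and 28.1 CPM in untreated IKK2 KO. Stmn2 stood at 53.4 and 51.2 CPM in untreated WT and at 0 counts in untreated IKK2 KO, and Sox2 at 84.3 and 86.5 CPM and 26.8 and 25.03 CPM. Sox2 fell in both lines and was called lower (−0.31 ± 0.09, adjusted p = 0.019), with the loss in CPM smaller in IKK2 KO by 13.3 CPM and the call lost without library untreated WT a, treated WT a, untreated IKK2 KO a or treated IKK2 KO a, with DESeq2 and in a fit of the 8 libraries alone (adjusted p from 0.0642 to 0.362). The part of these line differences in the responses was not tested.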

How the data were processed

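Estimated counts per gene, as deposited by the authors, came from 18 RNA libraries of immortalised MEF lines. Per the submitters' processing notes, GRCm38 was the build, and HISAT2, Trimmomatic, FastQC 0.11.8, edgeR 3.26.4 and featureCounts of Subread 1.6.2 are named, with no order. How reads on several genes were shared, and whether strand was used, is not given in the sources used here, so overlapping and near-identical genes are uncertain. Of the non-zero values 31.8% were fractional, and all were rounded to whole numbers. Column names give the group but no replicate number of the labels, so libraries are called a and b in the order of their codes. In every group the 2 libraries differed by more than sampling noise. That extra spread was small: the fit put the typical variation between libraries of a group at 1.93%. The adjusted p-values rest on this spread, and whether it is technical was not tested.

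Genes were filtered by edgeR's filterByExpr (0.0601% of the counts left out), and all 18 libraries entered 1 fit (edgeR 4.0.16 in R 4.3.3, TMM factors, robust quasi-likelihood, 1 term per group, 9 residual degrees of freedom), from which each contrast and its Benjamini-Hochberg adjusted p were taken. Standard errors come from the same fit. CPM were computed from the counts with the TMM factors. A gene at 0 counts in a group is given in CPM with no fitted fold change, and medians of lists are also given without members at 3 counts or fewer in a group. The fit was tested on simulated data. Alternatives were DESeq2 1.42.0, limma-voom (limma 3.58.1), RLE size factors, no filter, the libraries of the contrast alone, protein-coding genes alone, differences in CPM, and each library left out. Tables and figures used Python 3.11.15, pandas 2.3.3 and matplotlib 3.10.9.

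The comparison, the lists and the tests were chosen with earlier results of these data known. Named genes are the 15 largest called differences in each direction among genes reaching a mean of 2 CPM in at least 1 of the 4 groups, with more than 3 counts in each group, the TNF to untreated ratios of the lines not overlapping, and no provisional symbol (predicted, Rik or clone), up to 4 called members of each list, all members of the lists of inhibitors, subunits, chemokines and immediate-early genes that could be given, and examples chosen after their values were seen. The promoter table matched 10159 of the symbols tested.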

Additional observations from a re-analysis of the deposited data

Results flagged for a closer look

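The responses of WT and IKK2 KO to TNF differed for 794 genes by the test of the difference itself. Among the 122 genes followed in the fits below, 16 had called responses of opposite sign in the lines. Of all genes called, 49 of the 460 lower (10.7%) and 30 of the 334 higher (8.98%) had such responses. Genes were partly chosen after their values were seen, so the 16 are examples. Lif (−3.28), Pdgfb (−3.24) and Csf1 (−1.45), which encode secreted factors, and Ereg (−0.65), an EGF receptor ligand gene, rose in WT and fell in IKK2 KO. The phosphatase gene Dusp7 (−0.65), the transcription factor gene Klf10 (−0.46), the adaptor gene Traf3 (−0.46) and the deubiquitinase gene Cyld (−0.34) did the same. In the other direction, Pdgfrb (0.38), Spred2 (0.63), Klf4 (0.70), the long non-coding RNA Dnm3os (0.71), Vegfa (1.08), Sox9 (1.26), Mex3b (1.44) and Dlx3 (1.81) fell in WT and rose in IKK2 KO. All values are log2 differences, IKK2 KO minus WT, from 2 libraries per group.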

How the results depend on the processing

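DESeq2 called 475 genes in the difference, of which 473 had the same sign and were among the 794, with 251 lower and 71 of at least 2-fold; it called 516 between IKK2 KO and p65 KO and 594 for the change from 45 to 90 min. RLE size factors gave 803, limma-voom 786, no filter 786, the 8 libraries alone 651 and protein-coding genes alone 823. With 1 library left out, so that the lone library of a group is taken to vary like the others, 599 to 711 genes were called (254 to 318 higher, 345 to 396 lower, 90 to 109 of at least 2-fold), 615 to 881 between the knock-outs (615 without the first untreated p65 KO library) and 824 to 985 for the change with time. Of 1706 combinations of 122 genes with 14 fits, 1558 kept sign and call, 100 lost the call (22 genes, with adjusted p up to 0.658, for Ccl9), 6 gained it (Jund, Map3k8 and Zfp36), 37 (12 genes) changed sign without being called in either fit, and 5 had no adjusted p in DESeq2. Genes called in the difference kept their sign in these fits. The difference in CPM, in place of log2, had the opposite sign for Cxcl10 (4.97), Has2 (−4.5), Ccl7 (2.595), Fos (−1.32), Egr2 (−48.55), Sox2 (13.3), Btg2 (−91.45), Egr1 (−264.8) and Ier2 (−11.55), and for 20 of the 794 genes in all (2.52%). No paired analysis was possible because the columns carry no replicate number of the labels. With 2 libraries per group, responses of scarce genes are poorly determined.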
